A study of Solanum tuberosum with 9 samples.

Results

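Of 34239 potato gene models measured in tubers, 32917 carry identifiers starting Soltu.DM, and 94 of these stood clear of every control library when the tubers had been fumigated with rosemary essential oil (REO). They were chosen from their measured values: the lowest of the 3 REO libraries was at least 1.5 times the highest of the 6 control libraries, and the REO mean was at least 5 CPM (the count scaled to a library total of 1000000). Another 21 models met both limits but were set aside, because all 3 control libraries of day 40 lay above all 3 of day 0. The tubers were bought mature, belonged to the cultivar Keshan and were stored sealed at a controlled temperature and humidity. The 9 libraries formed 3 groups of 3: unfumigated tubers sampled on day 0, unfumigated tubers sampled on day 40, called stored controls here, and REO-fumigated tubers sampled on day 40. The dose of oil, the number of tubers behind a library and the tissue of the tuber that was sampled are not stated in the sources used here.

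A potato tuber is a swollen underground stem whose buds stay dormant after harvest and then sprout, with abscisic acid and ethylene on the side of dormancy and gibberellins and cytokinins on the side of growth. Rosemary oil is a mixture of volatile monoterpenoids such as cineole, camphor and pinene, and vapours of several such oils are used to hold back sprouting in stores. Plants commonly meet foreign lipophilic compounds with oxidising enzymes such as cytochromes P450, with conjugating enzymes such as glutathione transferases and glycosyltransferases, and with membrane transporters. Those are large families whose genes often lie side by side on a chromosome. None of the identifiers in the files (0) matched the reference gene table, so no member is assigned here to any family or function and no sequence is shown, and the tuber label could not be checked against marker genes. Members are given by identifier. In an identifier such as Soltu.DM.10G024690 the number before G is the chromosome, and the number after it increases along the chromosome in steps of 10.

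Library totals ranged from 29330673 to 36901701 counts. Of the 9 libraries, control day 40 replicate 2 stood apart. Its log2 CPM values correlated across genes with those of the other 2 libraries of its group at 0.898 and 0.916, whereas correlations within the groups were otherwise 0.957 to 0.974. Without it the rule selected 123 models, 83 of them members. Without REO replicate 1 the number was 146, of which 93 were members. These are measurements on bulk tissue, in which more RNA per cell and more cells of a type cannot be told apart.

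As a group the members took up a small part of the tuber's messenger RNA. Their summed level was 2286, 4058 and 2747 CPM in day 0 replicates 1, 2 and 3, and 3111, 2497 and 2009 CPM in the control replicates of day 40. With REO it was 9675, 17953 and 16049 CPM. The mean was 3030 ± 919 CPM (SD, n = 3) at day 0, 2539 ± 552 CPM in the stored controls and 14559 ± 4335 CPM with REO. The larger part of the mean REO sum came from a pair of models on chromosome 4. In REO replicate 1 the other members held the larger part, 5578 of 9675 CPM. Without that pair the means were 1529 ± 31.1, 1638 ± 280.3 and 6361 ± 948 CPM. These sums describe values that the rule itself selected and carry no test.

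The median member stood at 4.76 CPM at day 0, 4.73 CPM in the stored controls and 23.9 CPM with REO. The ratio of the REO mean to the control day 40 mean had a median of 2.24 on the log2 scale, with quartiles of 1.69 and 2.94. It reached 4-fold in 57 members and 10-fold in 15. For the stricter quantity, the lowest REO library over the highest control library, the median was 2.19, and 7 members exceeded 10-fold. Over all 13352 Soltu.DM models with an REO mean of at least 5 CPM the median of that ratio was 0.689. The rule set a lower limit on this ratio in members, so the gap between these medians was fixed by the choice of members.

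**Figure D1:**
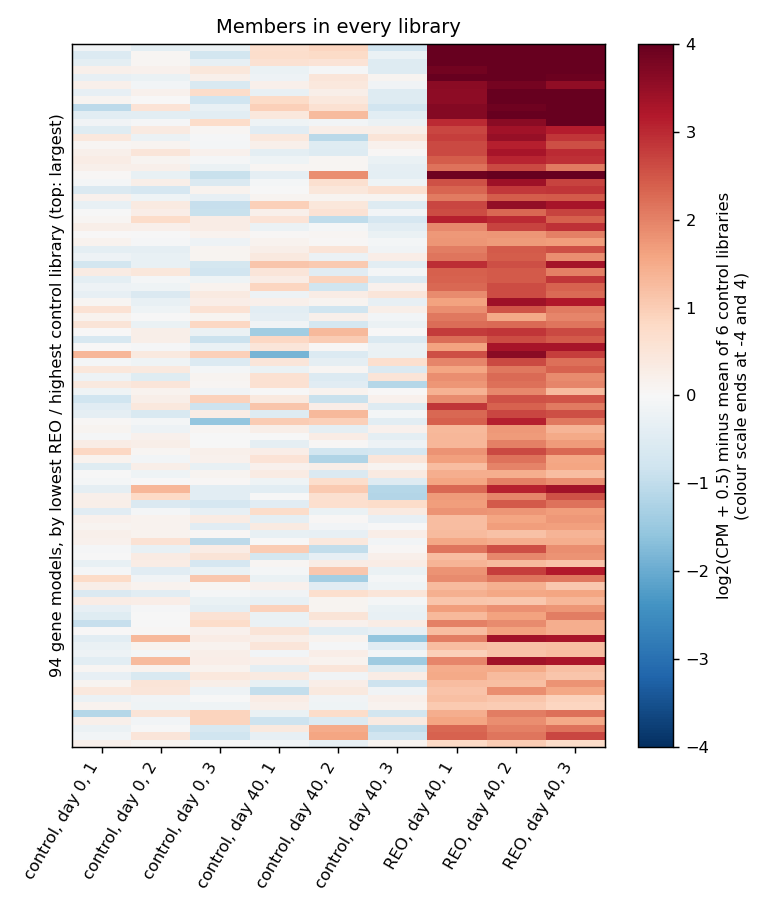
Each row is 1 of the 94 gene models, ordered from the largest ratio of lowest REO to highest control library, and each column is 1 of 9 libraries. Colour gives log2(CPM + 0.5) minus the mean of the 6 control libraries. Every cell of the 3 REO columns is above 0, while the control columns hold both signs.

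In the edgeR quasi-likelihood fit over all 9 libraries, 53 of the 94 members were called higher with REO than in the stored controls (Benjamini-Hochberg adjusted p under 0.05). The percentage of all 22638 tested models called higher was 0.424. The same libraries chose the members, so nothing is read from that count. Members that were not called numbered 41 and had a median ratio of lowest REO to highest control library of 1.8, against 2.91 in those called. Of the 96 models called higher in all, 15 were storage-rising rows set aside by the rule, 20 fell under the 1.5 limit, 6 fell under the 5 CPM limit and 2 carried identifiers added by the submitters. Against day 0, 68 members were called higher, where 1.39% of all tested models were. Against the stored controls DESeq2 called 91 members (1.67% of all models), and an edgeR fit of only the 6 libraries compared called 28 (0.177%).

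Only 4 members stayed under 1 CPM in all 6 control libraries, and 12 stayed under 2 CPM. The member with the largest ratio, Soltu.DM.10G024690 on chromosome 10, measured 0.278, 0.145 and 0.224 CPM at day 0 and 0.867, 1.06 and 0 CPM in the stored controls. With REO it measured 230.4, 436 and 294 CPM. The lowest REO library was 218 times the highest control library. Its length-corrected level with REO was 136 ± 44.9 FPKM (fragments scaled to gene length and library total; SD, n = 3), the eighth highest of the 94. It had a log2 fold change of 9.00 ± 0.80 (SE) against control day 40.

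A block of 3 consecutive identifiers on chromosome 10 was also among the 6 largest ratios. Soltu.DM.10G028080 measured 2.47, 3.99 and 2.11 CPM at day 0, 6.42, 6.84 and 3.04 CPM in the stored controls and 217, 272 and 225 CPM with REO. Its neighbour Soltu.DM.10G028070 measured 0.216 to 0.491 CPM at day 0, 0.16 to 0.948 CPM in the stored controls and 21.4, 26.2 and 21.6 CPM with REO. On the other side, Soltu.DM.10G028090 measured 0.0958 to 0.723 CPM in the 6 control libraries and 10.7, 12.3 and 10.2 CPM with REO. All 3 models had their highest REO value in replicate 2. Per length, the middle model reached 154 ± 19.4 FPKM with REO, the model before it 10.9 ± 1.29 FPKM and the model after it 7.13 ± 0.718 FPKM (SD, n = 3 for each). The ratio of lowest REO to highest control library was 31.7 for the middle model and 22.6 and 14.1 for those before and after it.

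**Figure D2:**
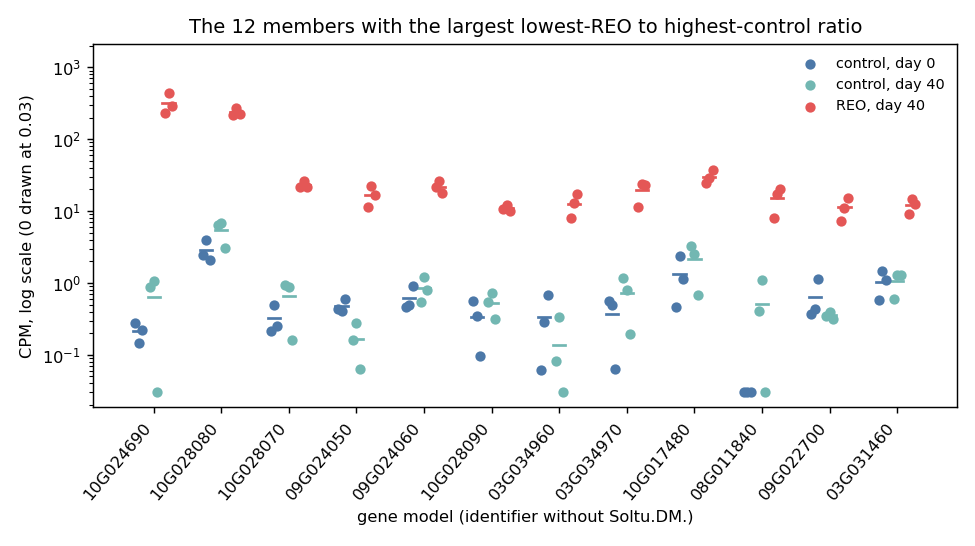
CPM on a log scale in every library for the 12 members with the largest ratio of lowest REO to highest control library. Points are libraries, short lines are group means and 0 is drawn at 0.03. Soltu.DM.10G024690 reached 230.4 to 436 CPM with REO against at most 1.06 CPM in a control library.

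The most abundant members were expressed in every library. Soltu.DM.04G002760 on chromosome 4 was already at 555, 1783 and 890.2 CPM at day 0 and at 852, 816 and 281 CPM in the stored controls. With REO it measured 2912, 7582 and 7158 CPM. The REO libraries lay above all controls, but by only 1.63-fold at the closest, because day 0 replicate 2 was high and REO replicate 1 was low. Its FPKM with REO was 6629 ± 2914 (SD, n = 3), the highest of the 94. Soltu.DM.04G002850, 9 identifier steps away, had the second highest FPKM with REO, 2591 ± 1100.

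This pair kept nearly 1 ratio in all libraries. The level of Soltu.DM.04G002760 divided by that of Soltu.DM.04G002850 was 2.46 to 2.59 in 8 libraries and 2.9 in control day 40 replicate 3. The sources used here do not say how reads of near-identical models were split, and whether 2 genes or 1 lie behind the pair was not tested. Soltu.DM.01G050660 measured 282, 236 and 288 CPM at day 0, 374, 111 and 362 CPM in the stored controls and 798, 1155 and 752 CPM with REO. Its lowest control value came from control day 40 replicate 2. Soltu.DM.10G026780 was at 81.4 to 123 CPM at day 0, 78.6 to 175 CPM in the stored controls and 416, 554 and 427 CPM with REO, again with the library of control day 40 replicate 2 at the bottom.

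Near the limits of the rule the values were less distinct. Just inside the fold limit, Soltu.DM.01G048120 measured 2.95 to 4.44 CPM in the 6 control libraries and 6.96, 8.24 and 6.68 CPM with REO, a ratio of 1.503. Soltu.DM.10G018870 measured 0.862 to 6.62 CPM in controls and 10.1 to 14.9 CPM with REO, and control day 40 replicate 2 alone set its highest control value. Just outside, Soltu.DM.10G021370 had 1.22 to 12.1 CPM in controls and 18.1 to 32.3 CPM with REO, and Soltu.DM.05G021720 had 1.73 to 4.44 CPM and 6.65 to 6.94 CPM. Their ratios were 1.498 and 1.495. Nearest above the level limit were Soltu.DM.10G026580, at 5.63, 4.55 and 5.1 CPM with REO, and Soltu.DM.09G024000, at 4.91, 6.89 and 6.12 CPM. Below it, Soltu.DM.01G034790 and Soltu.DM.02G017850 had REO means of 4.93 and 4.87 CPM. Among the submitter-added models, which the rule leaves out, 0 met the same limits.

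Separation by the same limits was also counted with each group in turn as the high one. With no margin at all, REO lay above all 6 control libraries in 501 Soltu.DM models of sufficient level, fewer than the 668 for control day 40 and the 770 for control day 0 above the other 6 libraries. With a margin of 1.5-fold the numbers were 115, 4 and 140, and the 115 hold the 94 members with the 21 storage-rising models. At 5-fold they were 14, 0 and 6, and at 10-fold 7, 0 and 0. In the opposite direction, REO lay below all 6 control libraries by 1.5-fold in 16 models and by 5-fold in 0. These counts are descriptions without a test, and the REO counts use the values that chose the members. The groups also differ in the spread between their libraries, so the counts do not measure how unusual the separation was. Control day 40 as the high group includes its replicate 2, the library that stood apart. The part of that library in the low counts for control day 40 was not tested.

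**Figure D3:**
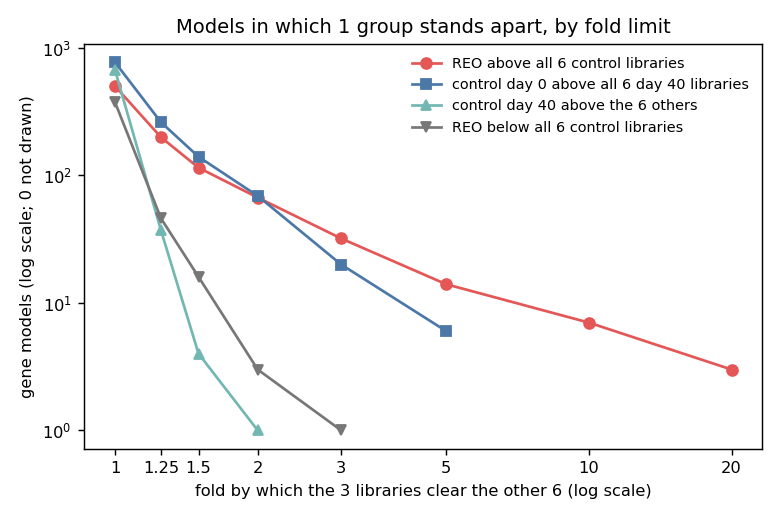
Number of Soltu.DM gene models in which all 3 libraries of a group cleared the 6 others, against the margin, both on log scales with 0 not drawn. The REO line falls least steeply, from 501 models with no margin to 3 at 20-fold, and control day 40 falls from 668 to 4 at 1.5-fold.

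Members differed in how evenly they stood in the 3 REO libraries. The highest REO library exceeded the lowest by a median of 1.49-fold, by at least 2-fold in 12 members and by at least 3-fold in 2. Over 13350 models of sufficient level the median was 1.24-fold and the upper quartile 1.4-fold. REO replicate 2 was the highest of the 3 in 53 members (56.4%) and replicate 1 was the lowest in 58 (61.7%). Over all 13352 models of sufficient level, replicate 2 was highest in 29.2% and replicate 1 lowest in 49.5%. The widest range belonged to neighbours on chromosome 6. Soltu.DM.06G019070 measured 2.53 to 4.02 CPM in the 6 control libraries and 11.1, 39.1 and 34.1 CPM with REO. Soltu.DM.06G019060 measured 0.99 to 2.01 CPM in controls and 4.94, 16.9 and 17.1 CPM with REO. In both, REO replicate 1 was the low one.

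Between the control groups of day 0 and day 40 the members differed in both directions. Their control day 40 mean was higher than the day 0 mean in 53 of 94 (56.4%, against 63.3% of all models of sufficient level). The means lay within 2-fold of each other in 80 (85.1%, against 95.2% of all models of sufficient level). Members had lower control levels, with medians of 4.76 CPM at day 0 and 4.73 CPM at day 40. Over all models of sufficient level these medians were 23.3 and 24.8 CPM. The rule held every control library of a member under its REO libraries, so this gap was selected for. The part of level in the share within 2-fold was not tested. The median log2 ratio of the control means was 0.07 over the 93 members with day 0 counts, against 0.12 over all models of sufficient level. Its sign depended on the scaling: with TMM-scaled CPM the members' median was -0.05. In the edgeR fit 44 of the 94 had a positive log2 fold change. Their median there was -0.04, against 0.04 over all tested models. In 5 members all day 40 control libraries lay below all day 0 libraries, a share of 5.32% against 7.54% of all models of sufficient level. The rule excluded members with the opposite order, which 16.2% of models of sufficient level showed. Models with that order stay in the sets given for comparison. The members' share with a higher day 40 mean, their medians and their higher calls between the control groups are therefore not free of the rule. edgeR called 0 members between control day 40 and day 0, where it called 0.844% of all tested models, and at an unadjusted p under 0.05 there were 4 higher and 11 lower members, against 9.04% and 9.34% of all tested models. DESeq2 called 2 members higher and 3 lower, against 3.07% and 3.7% of all.

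The member with the largest fall in untreated storage on the log2 scale was Soltu.DM.06G023440 on chromosome 6. It measured 7.22, 3.5 and 5.46 CPM at day 0, 0.352, 1.61 and 2.05 CPM in the stored controls and 17.8, 36.6 and 20.5 CPM with REO. The 3 groups did not overlap, with the untreated stored tubers lowest. Soltu.DM.07G027150 on chromosome 7 measured 6.04 to 14.7 CPM at day 0, 2.34 to 6.37 CPM in the stored controls and 26.2 to 31.2 CPM with REO, and its control groups overlapped. Among members with a mean of at least 1 CPM in both control groups, the largest log2 rises were in Soltu.DM.01G036060 and Soltu.DM.08G025180, at 1.58 and 1.24. Soltu.DM.01G036060 went from 1.23 to 1.85 CPM at day 0 to 5.83, 5.54 and 1.66 CPM in the stored controls, and stood at 22, 17 and 28.9 CPM with REO. In Soltu.DM.08G025180 the rise in controls rested on 1 library: control day 40 replicate 2 had 16.6 CPM, whereas the other 2 had 3.14 and 3.07 CPM and day 0 had 2.04 to 4.29 CPM. With REO that model measured 68.5, 85.5 and 115 CPM. Soltu.DM.08G011840 on chromosome 8 was singled out after its values were seen. No day 0 library held a count (0) of it, where 3 counts would be 0.0867 to 0.0958 CPM. It measured 0.406, 1.11 and 0 CPM in the stored controls and 7.98, 17.1 and 20.6 CPM with REO.

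**Figure D4:**
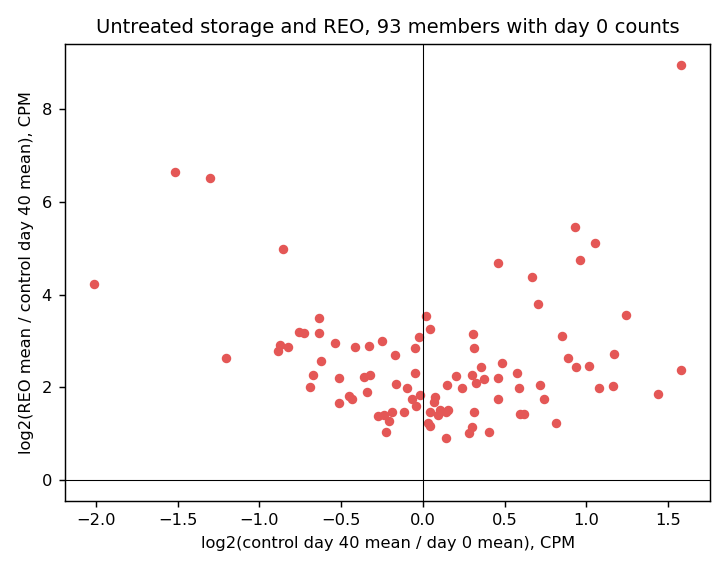
Each point is 1 of the 93 members with counts at day 0. The horizontal axis is the log2 ratio of the control day 40 mean to the day 0 mean, and the vertical axis is the log2 ratio of the REO mean to the control day 40 mean, which shares the control day 40 libraries. Points lie on both sides of 0 horizontally, from -2.01 to 1.58, and all lie above 0 vertically.

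Some members lay near one another in identifier order, which the rule had not used, while 70 of the 94 lay in no run. Within 5 identifier steps of another member lay 24 of the 94, in 10 runs on 8 chromosomes: 7 runs of 2, 2 runs of 3 and 1 run of 4. Of the 349 models of sufficient level that lay within 5 steps of a member, 6.88% were members themselves, against 0.704% of all 13352. At 1 step the share was 22.1% of 77 models, and at 50 steps it was 1.83% of 2616. The 140 models that stood highest at day 0 by the same limits showed the same kind of grouping, with 14.8% of 128 first neighbours in that list against 1.05% of all. Among the 21 storage-rising models set aside, the share was 9.09% of 22 first neighbours against 0.157% of all, which rests on 2 models. Members and eligible models had a model of like level nearby about equally often, 72.3% and 74.2%.

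The longest run, on chromosome 9, held 2 pairs. Soltu.DM.09G024050 measured 0.405 to 0.607 CPM at day 0, 0.064 to 0.278 CPM in the stored controls and 11.2, 22.1 and 17 CPM with REO. The next identifier, Soltu.DM.09G024060, measured 0.463 to 1.2 CPM in the 6 control libraries and 21.6, 26.1 and 17.8 CPM with REO. The other pair had smaller ratios: Soltu.DM.09G023990 stood at 34.3 to 139 CPM in controls and 305, 416 and 250 CPM with REO, while Soltu.DM.09G024000 stood at 0.768 to 2.45 CPM in controls. Of the 4 models between the pairs, Soltu.DM.09G024020 measured 0.740 to 1.85 CPM in controls and 2.16 to 2.6 CPM with REO, and Soltu.DM.09G024030 measured 0.524 to 2.59 CPM and 3.46 to 5.81 CPM. Both lay above all controls with REO but under the limits. Soltu.DM.09G024010 overlapped the controls, and Soltu.DM.09G024040 had 3 counts in all libraries together.

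On chromosome 3, the neighbours Soltu.DM.03G034960 and Soltu.DM.03G034970 were singled out after their values were seen. The first measured 0 to 0.671 CPM in the 6 control libraries and 7.98, 13 and 17.2 CPM with REO. The second measured 0.0639 to 1.17 CPM and 11.3, 23.9 and 23.2 CPM. REO replicate 1 was the lowest of the 3 in both, while in Soltu.DM.09G024060 replicate 3 was the lowest. A run did not always move as a whole. Soltu.DM.09G030770 and Soltu.DM.09G030800 reached 21.1 to 42.6 CPM and 21.4 to 37.2 CPM with REO. The 2 models between them stayed within the range of their controls in at least 1 REO library. For Soltu.DM.09G030780 the top of that range came from control day 40 replicate 2 alone, at 4.65 CPM. Its other control libraries held 0.224 to 0.833 CPM, below its REO values of 1.16 to 2.84 CPM.

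**Figure D5:**
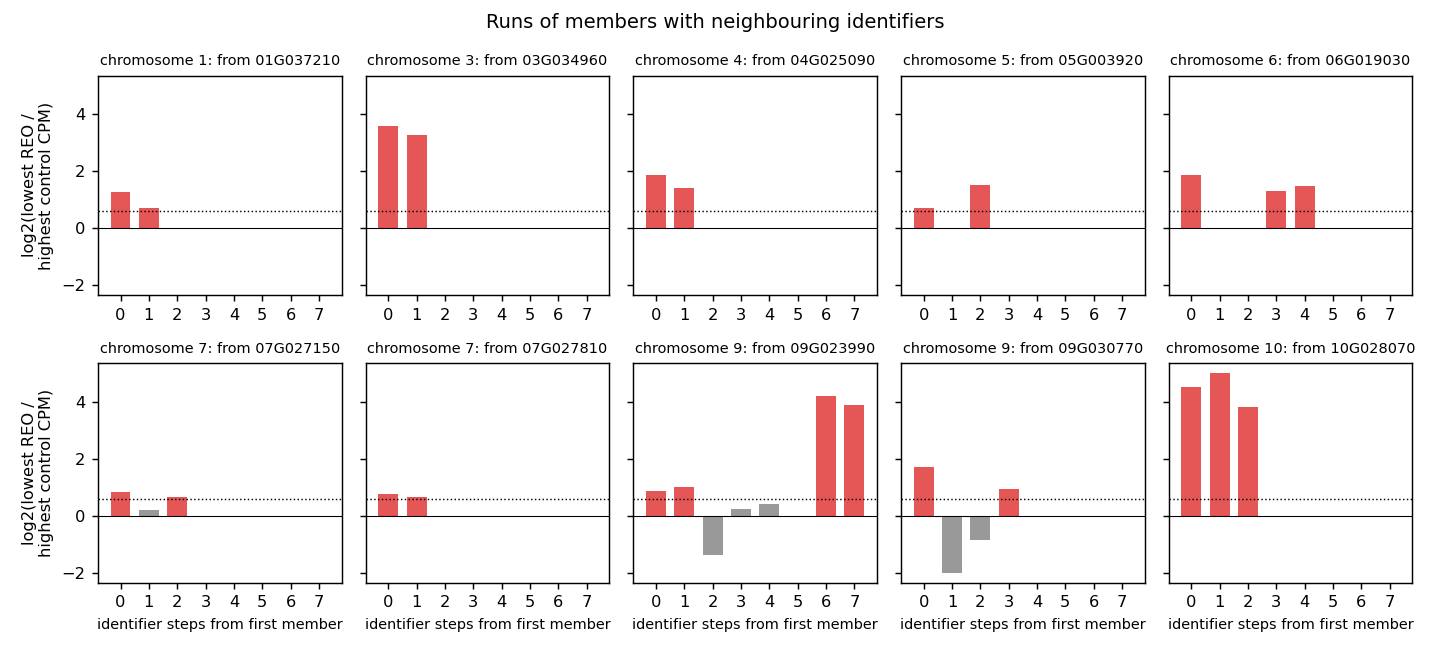
Log2 of the lowest REO over the highest control library for the 10 runs of members, by identifier steps from the first member of a run. Red bars are members, grey bars other models, the dotted line is the 1.5-fold limit, and steps with no bar hold no model in the file or no control counts. The 3 bars on chromosome 10 and the last 2 of the first chromosome 9 run are the tallest.

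Models next to members that were not members themselves were read in the same way. Of 108 such tested models 1 identifier step from a member, 21 (19.4%) had all REO libraries above all 6 control libraries, against 2.77% of all 22544 tested non-members. All REO libraries lay below all controls in 1 of the 108 (0.926%), against 2.31% of the non-members. Their median log2 fold change against control day 40 was 0.11, where that of all tested models was -0.05. edgeR called 3 of the 108 higher (2.78%, against 0.191% of the non-members). One of them, Soltu.DM.04G002770, singled out after its values were seen, sits beside the most abundant member and measured 17.4 to 24.8 CPM at day 0, 8.59 to 14.3 CPM in the stored controls and 36, 41.3 and 32.3 CPM with REO. For the models that stood highest at day 0, first neighbours showed the matching order in 9.09%, against 3.78% of the others, and the opposite order in 9.66%, against 7.58%. Reads shared between similar or overlapping neighbours would also give such values. No strand-marking step is described, and the part of shared reads was not tested.

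The members were spread over all 12 chromosomes. Chromosome 9 held 14 of them (14.9%), against 7.29% of the models of sufficient level, and 6 of the 14 belong to its runs. Chromosome 11 held 3 (3.19%, against 6.86%) and chromosome 1 held 8 (8.51%, against 12.8%). The members' length scale, read from the ratio of count to FPKM, had a median of 1573 bases and quartiles of 1085 and 1966 bases, shorter than the median of 1878 bases over all models of sufficient level. It ran from 232 bases in Soltu.DM.06G019060 to 7105 bases. The 21 storage-rising models that were set aside had a median length scale of 1398 bases. Their REO mean exceeded the control day 40 mean by a median of 1.44 on the log2 scale, and their control day 40 mean exceeded the day 0 mean by 0.91.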

How the data were processed

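The deposited files were raw counts per gene model and a companion table read as FPKM from its values, both covering 34239 gene models and 9 libraries. In 89% of 10904 models with at least 200 counts in every library, count over FPKM factored into a value per gene and a value per library to within 2%. Per the submitters' processing notes HISAT2 2.1.0 and DESeq2 were used. The counting tool, genome build and annotation are not stated in the sources used here. The members and lists were chosen with earlier results of these data known.

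CPM was the count over the column total, without further scaling. The floor of 3 counts was 0.0813 to 0.102 CPM, which covers counting error only. Models were filtered with filterByExpr and fitted with the quasi-likelihood test of edgeR 4.0.16 (R 4.3.3), with TMM scaling, 1 coefficient per group and two-sided Benjamini-Hochberg adjustment over 22638 models. The fit was also run on simulated counts with planted changes, which held no divergent library and no members chosen by a rule. That run does not bear on the calls given here. Standard errors were derived from the F statistic. What separates the replicates is not described beyond their being biological, and p-values reflect the spread among the 9 libraries. Gene models were named by rank: ratio, level, nearness to the limits, control difference, REO range and longest run. Other models named lie in a run or between its members, lie just under the level limit, or are said to have been singled out after their values were seen. Alternatives were DESeq2 1.42.0, limma 3.58.1 on log2(FPKM + 1) and log2(FPKM + 0.1), another scaling and filter, a fit of 6 libraries, a replicate block, other limits and leaving out each library. The planned lists of named genes and tissue markers had 0 testable members.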

Additional observations from a re-analysis of the deposited data

How the results depend on the processing

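The number of models meeting the rule was 162 with a fold limit midway between 1 and 1.5, 59 with a limit of 2, and 81 to 146 when single libraries were left out. The highest came without REO replicate 1. Leaving out control day 40 replicate 2 together with REO replicate 1, added after seeing the data, gave 197, of which 82 were members. The 94 became 102 with TMM-scaled CPM (89 shared) and 93 with FPKM (89 shared). Members called higher than in control day 40 numbered 53 in edgeR, 91 with DESeq2, 28 in a fit of only the 6 libraries compared and 20 to 60 when single libraries were left out. That count fell to 32 on removing day 0 replicate 1, to 28 on removing control day 40 replicate 3, and to 30, 20 and 28 on removing the REO libraries in turn. Against day 0 the 68 calls became 30 to 91, at 39 and 45 on removing day 0 replicates 1 and 2, and at 30 on removing REO replicate 2. Between the control groups the 0 calls became 5 with DESeq2 and 0 to 1 when single libraries were left out. All 94 members kept a positive log2 fold change against control day 40 in every one of these fits, which the choice of members fixes. The cause of these shifts was not tested. For the fits that left out single libraries, the share of all tested models called is not given here. Nothing about the members is read from those calls. With the replicate number as a block the calls against control day 40 were 33, again without the share over all tested models. Deviations of same-numbered libraries correlated across genes at -0.555 to 0.327, and those of differently numbered libraries at -0.416 to 0.611. These ranges overlap and show no pairing by number. They cannot exclude pairing, because deviations within a group of 3 are not independent. The median log2 ratio of REO to control day 40 was 2.09 to 2.36 when single libraries were left out. The count of members with a neighbouring identifier was 17, 24, 26 and 48 for windows of 1, 5, 10 and 50 steps. Totals from 29330673 counts leave levels under 0.102 CPM at or below 3 counts, which touches the control values of the lowest members.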
